A study of Mus musculus with 16 samples.

Results

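Whether the effects of losing Runx1 and losing Foxl2 add up in the newborn XX ovary was examined gene by gene over all 16 arrays of the series, with 18193 genes tested. The quantity described is the interaction, which is the difference between DKO and Foxl2 KO ovaries minus the difference between Runx1 KO and control ovaries. It was taken on the log2(intensity + 16) scale and for the brightest probe set of each gene. On this scale an interaction of 0 means that the combined loss gave the sum of the 2 single differences, which is the additive level. A positive interaction places the DKO ovaries above that level and a negative interaction places them below it.

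Each array carried amplified RNA from 1 newborn (P0) ovary freed of the mesonephros, and each genotype had 4 ovaries. Control ovaries were Runx1+/f Foxl2+/+ Sf1-cre+/+, with working copies of both genes and no Cre transgene. Runx1 KO ovaries were Runx1-/f Foxl2+/+ Sf1-cre+/Tg, so that 1 allele was null in every cell and the floxed allele was open to Cre in the SF1-expressing somatic cells of the gonad. Foxl2 KO ovaries were Runx1+/f Foxl2-/- Sf1-cre+/+ and lacked Foxl2 in every cell. DKO ovaries were Runx1-/f Foxl2-/- Sf1-Cre+/Tg and combined both changes. The Cre transgene was present in Runx1 KO and DKO ovaries alike, so an effect of Cre that adds on the log2 scale drops out of the interaction. All 4 groups came from the same crosses, and every group carried at least 1 floxed Runx1 allele. The RNA came from whole ovaries, so fewer cells of a type and less RNA per cell cannot be told apart.

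RUNX1 is a transcription factor with a runt DNA-binding domain, and FOXL2 is a forkhead transcription factor. Both are made in pre-granulosa cells, which support the germ cells of the fetal ovary and share a precursor with the Sertoli cells of the testis. FOXL2 is known for keeping granulosa cells from taking on Sertoli features after birth. Genes that depend on either factor can respond to the combined loss in several ways. A gene that is already shut off by 1 loss has no further to fall (saturated), a change seen after 1 loss can be absent when both factors are missing (suppressed), and a gene can respond beyond the sum (more than additive).

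Departures from additivity that passed the test were rare. The interaction was called (limma, Benjamini-Hochberg adjusted p under 0.05) for 2 of 18193 genes, or 0.011%. These were Col8a1, a chain of type VIII collagen, with an interaction of 3.21, and Slc8a3, a sodium-calcium exchanger of the cell membrane, with an interaction of -3.01. At an unadjusted p under 0.05 there were 970 genes, 5.33% of those tested, near the share this threshold passes without any interaction. Of these, 351 (1.93%) were positive and 619 (3.4%) negative. That split became 439 positive and 401 negative when the arrays were given equal medians, and 461 positive and 476 negative after quantile normalization. The median interaction was -0.03, and 97.2% of genes lay within 1 log2 unit of 0. The interaction combines 4 group means, and its median standard error of 0.29 exceeded the 0.20 of a difference between groups. A gene with that median error would have needed an interaction of 1.94 in size, or 3.85-fold from the additive level, to be called, so smaller departures of such a gene were not detectable with 4 ovaries per group.

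Sorted by their 3 differences from control, the 970 genes held 261 suppressed patterns, in which the DKO difference was at most 50% of the larger single difference. A further 162 were saturated, with a DKO difference in the direction of the larger single one but short of the sum, 17 were reversed and 5 were more than additive. In 35 genes only the DKO difference reached 1.5-fold, and in 490 no group differed from control by 1.5-fold. Over all 18193 genes the same sorting gave 767 suppressed, 1232 saturated and 201 more than additive patterns. In 666 genes only the DKO difference reached 1.5-fold, and in 15288 no difference did. These are descriptions of point estimates. The 970 genes were picked because the DKO departed from the sum, so their pattern shares follow in part from that choice. The 4 control ovaries enter all 3 differences, and a control mean that is too high or too low by chance gives a saturated pattern by arithmetic.

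The scale has a bottom. An intensity of 0 corresponds to 4 on the log2(intensity + 16) scale, and no DKO level can lie lower. Y-linked genes, which XX ovaries lack, gave the background of the arrays. Of the 7 measured, 6 had mean levels between 4.51 and 6.16, while the Sry probe set read 8.30, equal to an intensity of 300. The limit set in the design was the highest of these levels, and by it 52.9% of genes had an additive level in the background. Since it rested on the Sry probe set alone, the median Y-linked level of 5.34 (intensity 24.5) was used beside it, a choice made after the values were seen. The additive level lay below 4 for 77 genes (0.423%) in all. It lay there for 20 of the 351 positive genes (5.7%) and for 0 of the 619 negative ones, so that for these 20 a positive interaction was partly fixed by the scale.

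**Figure D1:**
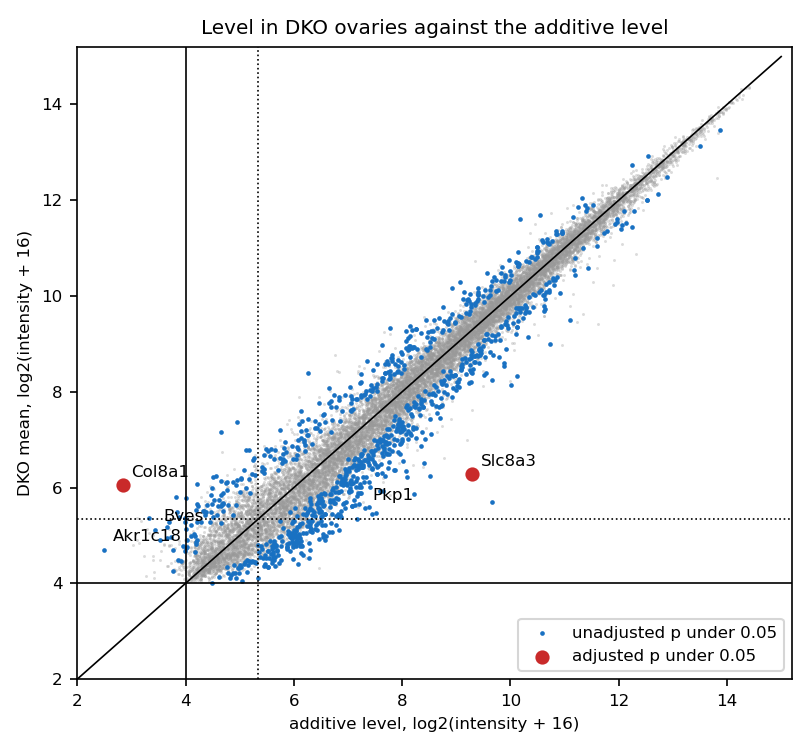
Mean level in the 4 DKO ovaries (vertical axis) against the additive level (control plus the 2 single differences, horizontal axis), both in log2(intensity + 16), with 1 point per gene (18193 genes). The diagonal marks additivity, solid lines the scale minimum of 4 and dotted lines the median Y-linked level of 5.34; most genes lie along the diagonal, Slc8a3 lies below it (interaction -3.01), and Col8a1, Akr1c18 and Bves have additive levels to the left of the scale minimum.

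Of the targeted genes, Foxl2 read 2774 to 4241 in controls, 2641 to 3585 in Runx1 KO, 484 to 890 in Foxl2 KO and 570 to 839 in DKO ovaries. The groups with and without Foxl2 alleles did not overlap, and the interaction was 0.16 ± 0.28 (SE). Runx1 read 2142 to 2359 in controls, 932 to 2127 in Runx1 KO, 2356 to 3054 in Foxl2 KO and 2111 to 2370 in DKO ovaries. The ovaries labelled DKO thus read at the control level for Runx1, and the interaction was 0.42 ± 0.27 (95% confidence interval -0.15 to 1.00). The next brightest Runx1 probe sets differed from control by -0.66 and -0.76 in Runx1 KO and by -0.15 and 0.03 in DKO ovaries. Their interactions were 0.25 and 0.66 (limma unadjusted p = 0.383 and 0.0361). The dimmer ones differed by 0.08, 0.32 and -0.25 in Runx1 KO and by 0.67, 0.58 and 0.37 in DKO ovaries. The same probes read both groups, and why the brighter ones fell in Runx1 KO but not in DKO ovaries was not tested. Whether these probes match the stretch of Runx1 that Cre removes is not given in the sources used here, so Runx1 signal checks the Runx1 part of neither the Runx1 KO nor the DKO labels. Ryr2, a calcium release channel of the endoplasmic reticulum, read 61.5 to 107 in Runx1 KO and 45.6 to 97.2 in DKO ovaries, below all Foxl2 KO ovaries (181 to 634) and all controls (414 to 918). Oocyte RNA was present in every group, since Gdf9, an oocyte growth factor, read from 174 to 1726 over the 16 ovaries.

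In lists of other cell types, 2 ovaries stood apart. Control replicate 4 had a mean level of 10 erythroid genes that was 3.67 above their average over all arrays, and no other ovary was above that average. That of 12 skeletal muscle genes was 3.96 in Runx1 KO replicate 2 and at most 0.19 elsewhere. The erythroid list had a median interaction of 0.95 with all ovaries and -0.10 without control replicate 4, and the skeletal muscle list had -0.91 and, without Runx1 KO replicate 2, 0.14. No gene of either list was called (limma), and none had an unadjusted p under 0.05. With both ovaries left out, 0 genes were called and 952 had an unadjusted p under 0.05. The interaction of Col8a1 was then 2.87 (limma adjusted p = 0.0862) and that of Slc8a3 -2.76 (adjusted p = 0.165).

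Col8a1 was the positive call. Its intensity was 1374, 2318, 1907 and 2282 in the 4 control ovaries. It was 360, 97.8, 147 and 190 in Runx1 KO, 62.0, 66.0, 50.9 and 45.3 in Foxl2 KO and 68.5, 59.2, 32.3 and 46.8 in DKO ovaries. Every KO ovary lay below every control, the Runx1 KO ovaries lay between, and the Foxl2 KO and DKO ovaries overlapped. Against the same controls, the log2 differences of Col8a1 were -3.32 for Runx1 KO, -4.76 for Foxl2 KO and -4.88 for DKO, and all were called (limma adjusted p = 0.000143, 3.96e-07 and 2.75e-07). Between DKO and Foxl2 KO the difference was -0.11 (adjusted p = 1.00). The interaction was 3.21 ± 0.42 (SE, 95% confidence interval 2.32 to 4.09, n = 4 per group, limma adjusted p = 0.0212), a saturated pattern 9.24-fold above the additive level.

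The additive level of Col8a1 was 2.84, below the scale minimum of 4. All 4 group means stood above the median Y-linked level, the lowest being 6.05 in DKO. That DKO mean lay below the Y-linked gene Usp9y, at 6.16, and the Foxl2 KO mean was also 6.16. A DKO mean at that median level of 5.34 would have given an interaction of 2.5, and one at the scale minimum 1.16, so 1.16 of the 3.21 could not have been avoided on this scale. By the limit set in the design, 8.30, the 3 KO means are bounds and the interaction is undetermined. The other 2 Col8a1 probe sets gave 2.73 (unadjusted p = 6.73e-05) and 0.88 (unadjusted p = 0.0326), in the same direction.

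The 300 bases around the annotated start of Col8a1 are shown because both factors bind DNA and the gene is 1 of the 2 called (GRCm38.p6, RefSeq, minus strand, chr16:57754688-57754987, from 250 bases before the start to 50 after it). Capitals mark the RUNX core TGTGGT or TGCGGT and the forkhead word TGTTTAC, searched on both strands, and no matches overlapped.
Col8a1: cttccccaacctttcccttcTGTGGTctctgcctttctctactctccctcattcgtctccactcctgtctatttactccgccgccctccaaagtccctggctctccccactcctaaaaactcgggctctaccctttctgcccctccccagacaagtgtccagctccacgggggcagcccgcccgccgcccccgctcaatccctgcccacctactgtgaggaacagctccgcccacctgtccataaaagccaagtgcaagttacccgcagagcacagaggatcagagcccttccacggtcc
The window held 1 RUNX core, beginning at base -230, and 0 forkhead words. Of 32851 RefSeq promoter windows of this length, 22.4% held a RUNX core, 3.65% the forkhead word and 0.865% both. A match describes these letters and not a bound site.

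Slc8a3 was the negative call. Its intensity was 49.5, 73.2, 55.8 and 50.9 in control ovaries, and 65.2, 124.5, 30.8 and 110.5 in Runx1 KO ovaries. It was 542, 341, 629 and 481 in Foxl2 KO ovaries but 77.7, 39.4, 71.9 and 63.9 in DKO ovaries. The Foxl2 KO ovaries all lay above the other 12, and the remaining groups overlapped one another. Slc8a3 rose by 2.79 on the log2 scale in Foxl2 KO against control (limma adjusted p = 9.05e-05), while its differences in Runx1 KO (0.32, adjusted p = 0.844) and DKO (0.09, adjusted p = 0.939) did not pass the test. The difference of DKO from Foxl2 KO ovaries was -2.69 (adjusted p = 0.00121). The interaction was -3.01 ± 0.42 (SE, 95% confidence interval -3.90 to -2.13, n = 4 per group, limma adjusted p = 0.0234), 8.06-fold below an additive level of 9.29, which is a suppressed pattern.

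Slc8a3 carries calcium out of the cell in exchange for sodium. All 4 of its group means lay above the median Y-linked level, and the additive level lay far above the scale minimum, so the bottom of the scale put no bound on its interaction. By the limit of 8.30, only the Foxl2 KO mean of 8.97 is measured, the other 3 means are bounds and the interaction is undetermined. The second Slc8a3 probe set, with group means between 4.23 and 5.24, gave -1.05 (unadjusted p = 0.0086). The start region of Slc8a3 is shown as that of the other called gene (GRCm38.p6, RefSeq, minus strand, chr12:81333131-81333430).
Slc8a3: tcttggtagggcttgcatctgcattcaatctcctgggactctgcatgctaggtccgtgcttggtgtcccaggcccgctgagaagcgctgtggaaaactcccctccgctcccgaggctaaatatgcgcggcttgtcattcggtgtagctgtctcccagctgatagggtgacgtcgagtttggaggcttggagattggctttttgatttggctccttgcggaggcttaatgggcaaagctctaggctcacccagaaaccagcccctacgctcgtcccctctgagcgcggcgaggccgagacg
Neither motif was found in it.

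**Figure D2:**
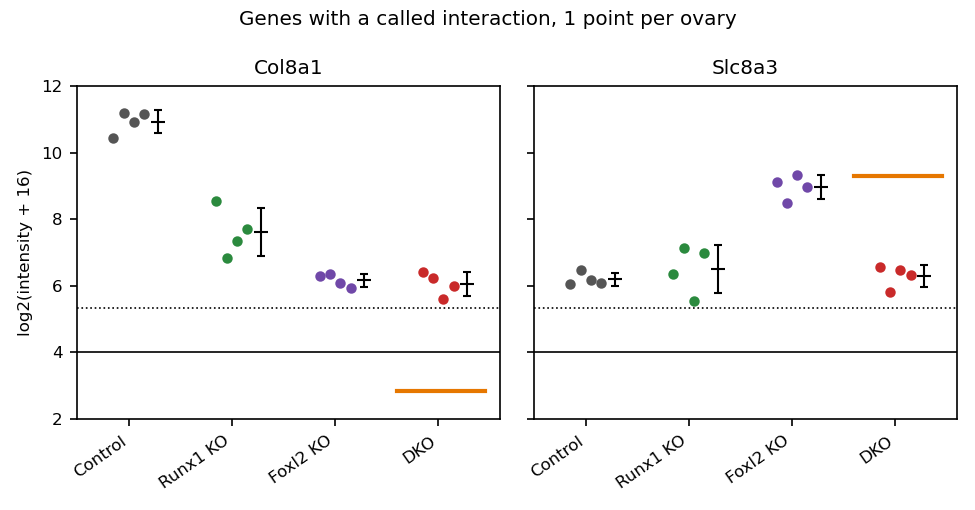
Level of Col8a1 and Slc8a3 in log2(intensity + 16) in each ovary, with 1 point per ovary and, beside the 4 points of a genotype, their mean ± SD. The orange bar is the additive level (2.84 for Col8a1 and 9.29 for Slc8a3), the solid line the scale minimum of 4 and the dotted line the median Y-linked level of 5.34; Col8a1 was low in all KO ovaries, and Slc8a3 was high in the Foxl2 KO ovaries alone.

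Neither call held in every fit that left out 1 ovary, and each such fit also had 1 array fewer. Col8a1 was still called in 9 and Slc8a3 in 6 of the 16 fits that left out 1 ovary. Both lost the call without control replicate 4 (adjusted p = 0.0831 and 0.0855), Foxl2 KO replicate 1 (0.0648 and 0.0918), Foxl2 KO replicate 3 (0.0825 and 0.0850), Foxl2 KO replicate 4 (0.0783 for both), Runx1 KO replicate 4 (0.0667 and 0.0720), DKO replicate 2 (0.0721 for both) and DKO replicate 4 (0.0507 for both), and Slc8a3 also without control replicate 1 (0.0923), Runx1 KO replicate 1 (0.0608) and DKO replicate 3 (0.0624). Their sizes moved little, from 2.95 to 3.52 for Col8a1 and from -3.33 to -2.80 for Slc8a3. On linear intensities, where additivity means adding intensity units, both were called, at 1767 units for Col8a1 and -461 for Slc8a3. The linear additive level of Col8a1 was -1715, and no intensity can lie below 0, so 1715 of the 1767 units were fixed by the scale. That of Slc8a3 was 524, where no such bound applied.

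**Figure D3:**
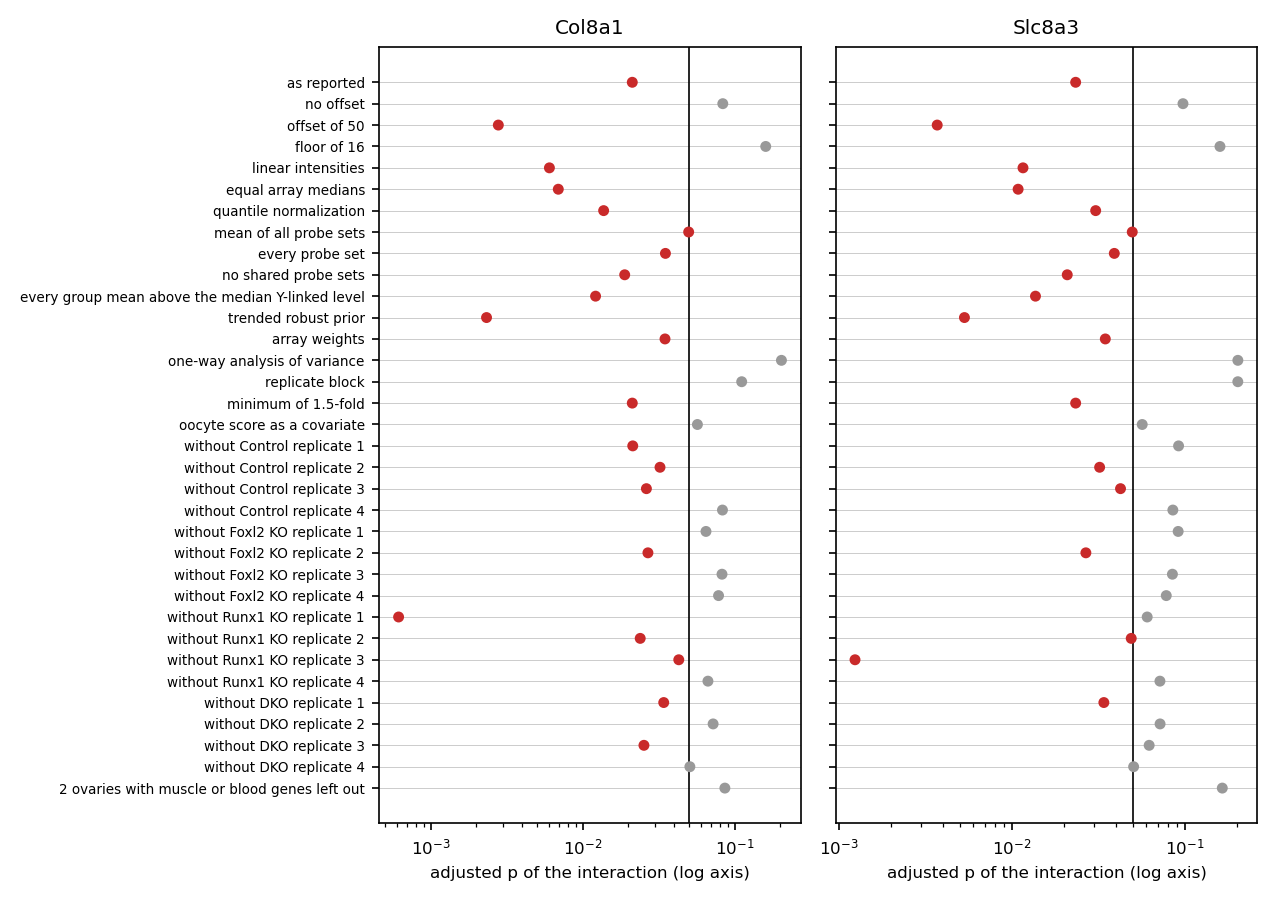
Adjusted p of the interaction (horizontal log axis) of Col8a1 and Slc8a3 as reported and under 33 other settings (1 row each), including the 16 fits that left out 1 ovary. Red points lie under the line at 0.05 and grey points above it; the reported values are 0.0212 and 0.0234, and Col8a1 lies under the line in 20 and Slc8a3 in 17 of the 33.

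Beside Col8a1, several genes lower in both single KOs stood above the additive level in the DKO, but their interactions were not called. Akr1c18, which inactivates progesterone, read 260 to 489 in controls, 21.4 to 52.2 in Runx1 KO, 16 to 53.4 in Foxl2 KO and 3.11 to 29.6 in DKO ovaries. It fell in each KO group against the same controls, with differences of -2.91, -3.25 and -3.96 in Runx1 KO, Foxl2 KO and DKO (limma adjusted p = 0.000729, 3.07e-05 and 3.09e-06). Its interaction of 2.20 ± 0.43 did not pass the test (adjusted p = 0.257), the additive level of 2.5 lay below the scale minimum, and the DKO mean lay below the median Y-linked level. With the DKO mean at that level the interaction would be 2.84. Hsd3b1, a steroid dehydrogenase that makes progesterone, had an additive level above the scale minimum on the log2 scale. It read 2347 to 3217 in controls, 830 to 1159 in Runx1 KO, 620 to 972 in Foxl2 KO and 402 to 769 in DKO ovaries. Its differences of -1.53, -1.86 and -2.19 in Runx1 KO, Foxl2 KO and DKO each passed (adjusted p = 0.00382, 0.000131 and 1.71e-05), and its interaction was 1.2 ± 0.29 (95% confidence interval 0.59 to 1.81, adjusted p = 0.521). On linear intensities the interactions of Akr1c18 (343 units) and Hsd3b1 (1710 units) were both called (adjusted p = 0.0121), but their linear additive levels were -331 and -1088, so that 331 and 1088 of those units were fixed by the scale.

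Bves, which encodes a cell adhesion protein of epithelia and muscle, fell in Runx1 KO (-1.47), Foxl2 KO (-1.75) and DKO (-1.53) (limma adjusted p = 0.0223, 0.000994 and 0.00208). Its 4 controls read 60.5 to 104 and its 12 KO ovaries 7.57 to 35. The interaction of 1.69 ± 0.34 was not called (adjusted p = 0.283), and the additive level of 3.43 lay below the scale minimum. All 3 KO means (5.18, 4.90 and 5.12) lay under the median Y-linked level, so that at this limit the interaction is undetermined, and the call in Runx1 KO was lost in 6 of the 16 fits without 1 ovary (control replicates 1, 2 and 4 and Runx1 KO replicates 1, 2 and 4, adjusted p = 0.0703 to 0.0977). A second Bves probe set gave 1.28 (unadjusted p = 1.95e-05). Gfi1, a zinc finger repressor of transcription known from blood cells, fell as well, with differences of -1.44, -1.14 and -1.08 in the same order (adjusted p = 0.0187, 0.0179 and 0.0191), with an interaction of 1.5 ± 0.32 (adjusted p = 0.36). It read 209.8 in control replicate 4 and 76.9 to 110 in the other controls, and that ovary was also highest for the erythroid list and for 17 lymphoid and myeloid genes (1.08 above their average). Without it the differences of Gfi1 were -1.19, -0.89 and -0.83 and the interaction 1.25 (adjusted p = 0.324). Its Runx1 KO call needed each of control replicates 1 and 2 and Runx1 KO replicates 1, 2 and 3 (when 1 was left out, adjusted p = 0.0511 to 0.0845), its Foxl2 KO call needed Foxl2 KO replicates 1 and 2 (0.0592 and 0.0577) and its DKO call needed DKO replicate 4 (0.0586). Clstn2, a membrane protein of the cadherin superfamily, differed by -0.68 in Runx1 KO (adjusted p = 0.213) and fell by 2.32 in Foxl2 KO and by 2.02 in DKO (adjusted p = 7.66e-07 and 3.72e-06). Its interaction was 0.98 ± 0.23 (adjusted p = 0.491), at levels of 192 and more in every ovary.

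Of the 13 measured genes for steroid hormone synthesis and metabolism, 0 were called and 5 had an unadjusted p under 0.05 (38.5%, against 5.33% of all genes). Akr1c18, Hsd3b1, Akr1c14 and Cyp11b1 were positive and Hsd17b3 negative, and the median of the list was 0.05 against -0.03 over all genes. Akr1c14, which reduces progesterone derivatives, had 0.54 ± 0.22, with 4162 to 5447 in controls and 1347 to 3338 over the KO ovaries. Cyp11b1, an adrenal enzyme, had 0.98 ± 0.41 with every group mean at or below 5.27, under the median Y-linked level. Cyp17a1, which makes androgens, had -0.20 ± 0.44, and Cyp11a1, which makes pregnenolone, -0.62 ± 0.36. The list was therefore not alike in direction. Like the other lists, it was chosen with earlier results of these data known, so its share beside that of all genes is not a test.

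Among the negative interactions that were not called, Pkp1 was also highest in Foxl2 KO ovaries. Pkp1, a plakophilin of the desmosome, read 6.64 to 31.5 in controls, 27.8 to 34.6 in Runx1 KO, 77.1 to 111 in Foxl2 KO and 21.6 to 53.5 in DKO ovaries. Foxl2 KO ovaries did not overlap with any other group. Pkp1 rose by 1.76 in Foxl2 KO (limma adjusted p = 0.000305) and had a difference of 0.56 in DKO (adjusted p = 0.268), with an interaction of -1.74 ± 0.30 (adjusted p = 0.149). Its control mean of 5.01 lay under the median Y-linked level.

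Map3k21, a kinase upstream of stress-activated kinases, had the smallest p of the uncalled negative genes. It read 27.6 to 46.8 in controls, 75.9 to 124 in Runx1 KO, 134 to 169 in Foxl2 KO and 98.3 to 152 in DKO ovaries. It rose by 1.08 in Runx1 KO, 1.65 in Foxl2 KO and 1.33 in DKO (adjusted p = 0.0136, 5.20e-05 and 0.000295), a saturated gain with an interaction of -1.40 ± 0.23 (adjusted p = 0.143). The lowest KO ovary stood above the highest control. With control replicate 2 left out the Runx1 KO difference of Map3k21 had an adjusted p of 0.0567, and with Runx1 KO replicate 1 left out 0.0584. A second Map3k21 probe set gave -0.64 (unadjusted p = 0.0979).

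Rab17, a small GTPase of epithelial trafficking, had an interaction of -1.57 ± 0.30 (adjusted p = 0.194), Nphs1, which encodes the podocyte protein nephrin, -1.67 ± 0.35 (adjusted p = 0.3), and Xcr1, a chemokine receptor, -1.06 ± 0.24 (adjusted p = 0.461). Each had control means between 4.70 and 5.02, at background. Nphs1 read 8.29 to 13.5 in controls, 32.1 to 56.4 in Runx1 KO, 14.0 to 50.2 in Foxl2 KO and 5.99 to 26.0 in DKO ovaries. Only the Runx1 KO ovaries lay wholly above both controls and DKO. Sult5a1, a sulfotransferase, was brighter, with means of 9.06 in control, 9.40 in Runx1 KO, 9.55 in Foxl2 KO and 8.53 in DKO and an interaction of -1.36 ± 0.31 (adjusted p = 0.461).

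Aard and Zcchc12, also uncalled, had DKO means near or above the control mean and lower means in both single KOs. No single KO difference of either gene passed the test. The limma adjusted p in Runx1 KO and Foxl2 KO was 0.625 and 0.0523 for Aard and 0.694 and 0.0880 for Zcchc12. Aard, a gene active in Sertoli cells, read 2454 to 3751 in controls, 2010 to 2262 in Runx1 KO, 1039 to 2187 in Foxl2 KO and 2749 to 3594 in DKO ovaries. The 8 single KO ovaries lay below all 8 others, and the interaction was 1.42 ± 0.29 (95% confidence interval 0.79 to 2.05, limma adjusted p = 0.296). Zcchc12, a zinc finger coactivator, had 1.31 ± 0.27 (adjusted p = 0.283). It read 81.5 to 126 in DKO ovaries, 66.7 to 94.9 in controls, 39.5 to 71.3 in Runx1 KO and 30.7 to 60.7 in Foxl2 KO ovaries.

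Kcnf1, a potassium channel subunit, had an interaction of 1.99 ± 0.36 (adjusted p = 0.156), but its second probe set gave -0.06. Its additive level of 3.82 lay below the scale minimum, which fixed 0.18 of the interaction, and its Foxl2 KO mean of 4.70 lay under the median Y-linked level. Clec12b, a lectin receptor, had 2.04 ± 0.37 (adjusted p = 0.156), with control and DKO means of 5.37 beside the median Y-linked level and both single KO means below it. The additive level of Clec12b was 3.33, so that 0.67 of its interaction was fixed by the scale. Elovl6, which lengthens fatty acids, had 1.29 ± 0.27 (adjusted p = 0.296). It read 188 to 312 in controls, 208 to 354 in Runx1 KO, 111 to 169 in Foxl2 KO and 347 to 446 in DKO ovaries. Its other probe sets gave -0.20 and 0.08. Gimap9, a GTPase of lymphocytes, had 0.99 ± 0.22 (adjusted p = 0.461).

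**Figure D4:**
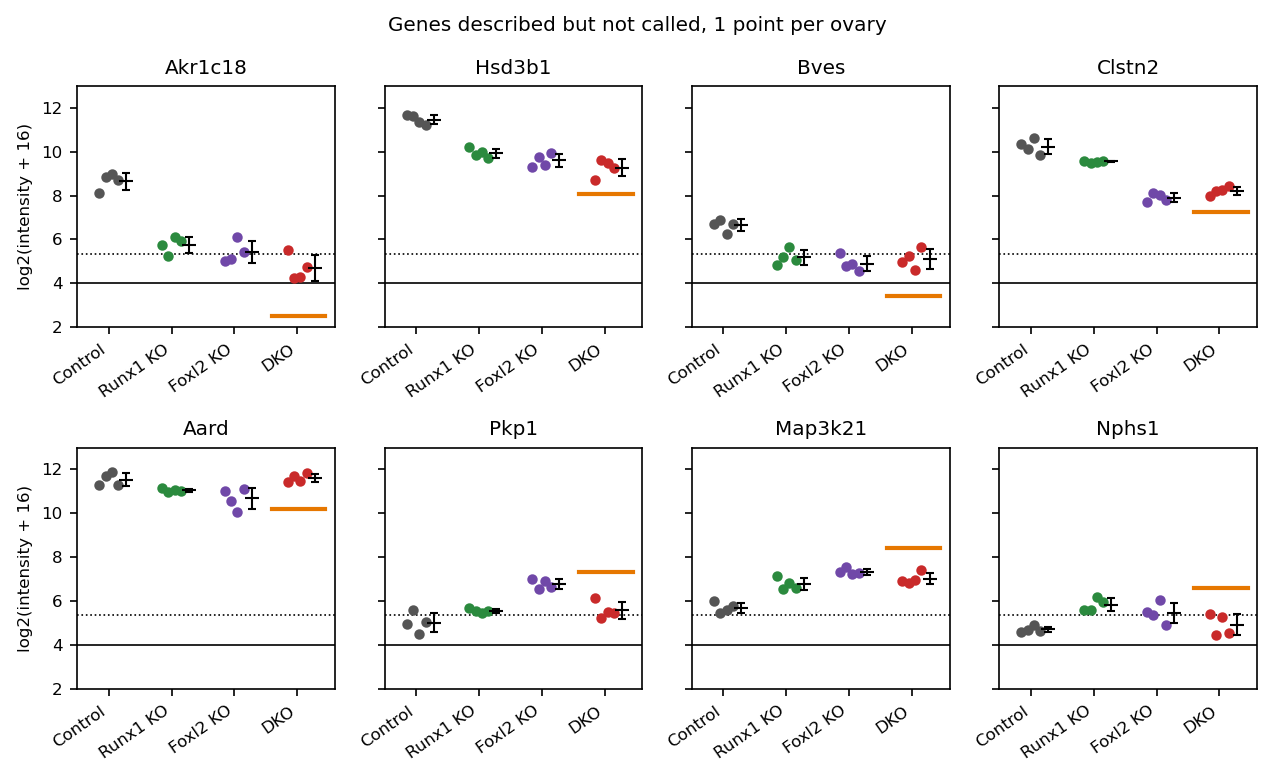
Level of 8 genes whose interaction was not called, in log2(intensity + 16), with 1 point per ovary and the mean ± SD of the 4 ovaries of a genotype beside them. Orange bars are additive levels, solid lines the scale minimum of 4 and dotted lines the median Y-linked level of 5.34; the additive level of Akr1c18 (2.5) and Bves (3.43) lies below the minimum, and Pkp1 and Map3k21 stand below their orange bars in the DKO.

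Of 28 measured Sertoli cell genes 0 were called and 7 (25%) had an unadjusted p under 0.05, 2 of them positive and 5 negative. The median of the list was -0.09, against -0.03 over all genes. This list too was chosen with earlier results of these data known. Hsd17b3, which makes testosterone in the testis, read 17.7 to 68.2 in controls, 45.3 to 76.4 in Runx1 KO, 216 to 563 in Foxl2 KO and 93.3 to 185 in DKO ovaries. Its DKO ovaries lay above all controls and below all Foxl2 KO ovaries, with an interaction of -1.41 ± 0.46. Cldn11, a tight junction claudin of the Sertoli cell barrier, read 591 to 840 in Foxl2 KO ovaries and 310 to 632 in DKO ovaries, against 152 to 476 in controls (interaction -1.07 ± 0.45). Sox10, a SOX factor, had -1.29 ± 0.42, with 1 of its other 2 probe sets positive. Sox10 is also in the list of 17 nerve and glial genes. In that list 3 genes, Sox10, Chl1 and Foxd3, had an unadjusted p under 0.05 (17.6%, against 5.33% of all genes), all negative. Clu, which encodes the secreted chaperone clusterin, read 3915 to 4806 in Foxl2 KO ovaries, below all others, and 5308 to 7538 in DKO ovaries (interaction 0.48 ± 0.19).

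Dhh, the hedgehog ligand of Sertoli cells, had an interaction of -0.69 ± 0.32 (95% confidence interval -1.37 to -0.02, limma adjusted p = 0.91). It read 34.1 to 78.2 in controls, 68.6 to 132 in Runx1 KO, 245 to 441 in Foxl2 KO and 331 to 404 in DKO ovaries, where the last groups overlapped. Fgf9, a growth factor of testis differentiation, had -0.62 ± 0.24 (95% confidence interval -1.14 to -0.10, adjusted p = 0.886). It rose by 0.98 in Runx1 KO (adjusted p = 0.0438) and by 1.02 in DKO (adjusted p = 0.00385), while the difference of 0.66 in Foxl2 KO did not pass (adjusted p = 0.0767). The Runx1 KO call of Fgf9 was lost in 13 of the 16 fits without 1 ovary, all but those without control replicate 1 or Foxl2 KO replicate 1 or 2 (adjusted p = 0.0550 to 0.14). Dmrt1, a factor that drives Sertoli fate, had 0.22 ± 0.33, Sox9, the central Sertoli factor, -0.17 ± 0.23, and Nr5a1, which encodes SF1, 0.19 ± 0.21. Amh, the hormone that removes the Müllerian duct, was at background in all groups, and its interaction is undetermined.

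Of 29 measured pre-granulosa cell genes, 0 were called and 2 (6.9%) had an unadjusted p under 0.05, near the 5.33% of all genes. The median of the list was -0.09. Nr5a2, a nuclear receptor of granulosa cells, read 684 to 994 in controls, 340 to 832 in Runx1 KO, 47.0 to 68.1 in Foxl2 KO and 55.8 to 90.7 in DKO ovaries, with an interaction of 0.93 ± 0.36 on the brightest probe set. Its other 3 probe sets gave 1.01, 0.05 and -0.31. Wnt9a, a WNT ligand, had -0.78 ± 0.32, from 9.14 in Foxl2 KO to 8.27 in DKO and 7.88 in control ovaries.

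Fst, which encodes the activin antagonist follistatin, read 1814 to 2452 in controls, 707 to 1309 in Runx1 KO, 359 to 1444 in Foxl2 KO and 259 to 382 in DKO ovaries. Its DKO mean was 8.38 and the additive level 8.72, with an interaction of -0.34 ± 0.48 (95% confidence interval -1.37 to 0.69). Foxl2 KO replicate 4 read 359 and the other 3 Foxl2 KO ovaries 1059 to 1444. Without that ovary the interaction of Fst was -0.79, and without each other ovary in turn it ranged from -0.46 to -0.14. The interval allows a DKO level from 1.37 below to 0.69 above additivity. Foxp1, a forkhead factor, had -0.18 ± 0.16 (-0.52 to 0.16), the narrowest interval of the 15 genes followed in the study that were measured here. Pdgfc, a growth factor, had -0.04 ± 0.37 and Wnt4, a ligand for female development, 0.47 ± 0.30. Ryr2 had 0.34 ± 0.49, Pla2r1, a phospholipase receptor, 0.52 ± 0.56, and Itpr2, a second calcium release channel, 0.56 ± 0.26. Of these 15 genes only Fgf9 and Dhh had an unadjusted p under 0.05. A miss of the threshold does not show additivity, and the intervals give the sizes left possible.

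**Figure D5:**
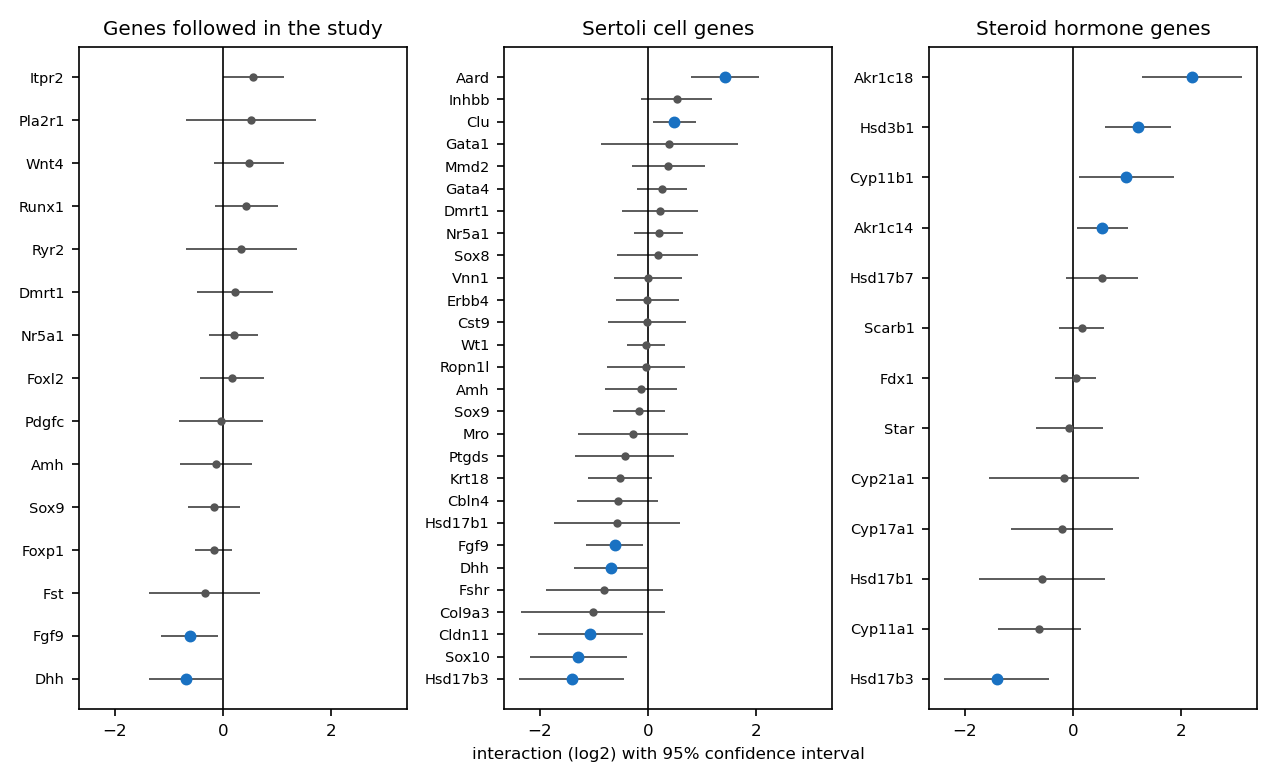
Interaction (log2) with its 95% confidence interval for the 15 measured genes followed in the study, 28 Sertoli cell genes and 13 steroid hormone genes, sorted by value within each panel. Blue points had an unadjusted p under 0.05 (2, 7 and 5 genes) and none of these genes was called; intervals of the other genes include 0.

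Genes sorted as more than additive were scarce. Those in which only the DKO difference reached the fold threshold formed a separate class, with 35 genes at an unadjusted p under 0.05. Genes of that class can also lie beyond the sum, and how many did was not counted. The 5 more than additive genes with an unadjusted p under 0.05 were Acsbg1, Chst9, Hamp2, Ermp1 and 1 clone. All but Ermp1 were named here after their values were seen. Ermp1, a peptidase of the endoplasmic reticulum, read 751 to 1067 in controls, 459 to 634 in Runx1 KO, 960 to 1232 in Foxl2 KO and 440 to 468 in DKO ovaries. It fell by 0.91 in DKO (limma adjusted p = 0.00108) and had differences of -0.68 in Runx1 KO (adjusted p = 0.0718) and 0.34 in Foxl2 KO (adjusted p = 0.325). The interaction was -0.57 ± 0.19 (adjusted p = 0.822). Acsbg1, an acyl-CoA synthetase, had 0.85 ± 0.24, Hamp2, of the hepcidin family, 1.36 ± 0.54, and Chst9, a sulfotransferase, -0.65 ± 0.30. Hpgd, which degrades prostaglandins, had a reversed pattern, with 290 to 559 in controls, 527 to 1114 in Runx1 KO and 228 to 389 in DKO ovaries (interaction -1.16 ± 0.35, and -0.87 on its second probe set).

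Among signalling genes, Bmpr1b, a BMP receptor, rose by 1.19, 0.84 and 1.10 in Runx1 KO, Foxl2 KO and DKO (limma adjusted p = 0.00793, 0.0189 and 0.00184). All 12 KO ovaries read 565 to 992, above the controls at 287 to 462. The Foxl2 KO call was lost without control replicate 1 or 3 or Foxl2 KO replicate 1 or 4 (adjusted p = 0.0529 to 0.0674), and the interaction was -0.93 ± 0.24 (adjusted p = 0.599). Both other Bmpr1b probe sets were negative, at -0.63 and -0.53. Fgf18, a growth factor, read 574 to 1229 in Foxl2 KO ovaries and 419 to 464 in DKO ovaries, against 329 to 439 in controls (interaction -0.80 ± 0.27, adjusted p = 0.822). Of 36 activin, BMP and TGF-beta genes and 24 FGF, PDGF and KIT genes, 3 each had an unadjusted p under 0.05, all negative, and 0 were called. These shares were 8.33% and 12.5%, against 5.33% of all genes, in lists chosen with earlier results of these data known.

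Of 29 calcium handling genes 4 had an unadjusted p under 0.05 (13.8%, against 5.33% of all genes). They included Slc8a3, 1 of the 2 genes called among all 18193. Pcp4, a calmodulin regulator, had -1.73 ± 0.48, and the calcium channel genes Cacna1c and Cacna1d had 1.16 ± 0.41 and -0.42 ± 0.19. Of 43 collagen and basement membrane genes 5 (11.6%) had an unadjusted p under 0.05, among them Col8a1, the other called gene. Col4a3, a type IV collagen chain, had -1.22 ± 0.43, Bcan, a brain proteoglycan, -1.17 ± 0.45, and the matrix glycoproteins Thbs2 and Tnc 0.71 ± 0.28 and 1.03 ± 0.42. The medians of both lists, 0.02 and -0.02, lay beside that of all genes. Of 22 cholesterol and fatty acid genes, Elovl6, Scd1 and Sc5d (13.6%) had an unadjusted p under 0.05 and the median was 0.16. These lists too were chosen with earlier results of these data known, so their shares beside that of all genes are not a test.

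For the cells an ovary also holds, 0 genes of the endothelial, macrophage, stromal, surface epithelial, nerve or oocyte lists were called (limma), and 1, 0, 2, 0, 3 and 2 of them in that order had an unadjusted p under 0.05. The 25 oocyte genes had a median interaction of -0.30, with Gdf9 at -1.88 ± 0.73 and Oosp1, an oocyte-secreted protein gene, at -1.78 ± 0.69. Gdf9 ranged from 317 to 1726 within the Runx1 KO ovaries alone, and the median of the list was -0.14 without control replicate 4 and -0.20 without Runx1 KO replicate 3. The 16 endothelial genes had a median of 0.35, with 13 above 0 and Cdh5, the cadherin of endothelial junctions, at 0.65 ± 0.30. That median was 0.36 without control replicate 4, 0.20 without Runx1 KO replicate 2 and 0.29 without Runx1 KO replicate 3. The part of cell makeup in the interactions was not tested beyond a fit with the oocyte score as a covariate, in which Col8a1 had 2.92 and Slc8a3 -3.22 (adjusted p = 0.0569 for both).

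In the lists not yet described, Slc8a3, which is also counted among 22 ion and solute transporter genes, was the only call. Of 28 cell cycle genes Cdkn2b, a cyclin-dependent kinase inhibitor, had an unadjusted p under 0.05 (-0.68 ± 0.20), as did Rsad2 (1.04 ± 0.36), an antiviral enzyme, of 25 interferon response genes and Crabp2 (0.77 ± 0.31), which binds retinoic acid, of 17 retinoic acid genes. Of 27 homeobox and duct factor genes there were 3, among them Irx2 (-0.76 ± 0.23), a homeobox factor. Of 21 immediate early genes there was Klf2 (-0.61 ± 0.20), a zinc finger factor. In the stromal list Rgs5, a pericyte gene, had 0.60 ± 0.26. None of 18 Notch pathway genes, 23 meiotic prophase genes and 8 liver genes had an unadjusted p under 0.05. The 8 liver genes had a median interaction of 0.49, with 7 above 0. Their mean level was highest in DKO replicates 1 and 2, at 0.93 and 0.72 above the average over all arrays.

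Probe sets without a single assigned gene were examined as well. Of 10092 such probe sets, 0 were called in a limma fit over all 45037 probe sets, and 539 (5.34%) had an unadjusted p under 0.05. In that fit 1 probe set was called, that of Col8a1 (adjusted p = 0.0461), while Slc8a3 had an adjusted p of 0.0517.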

How the data were processed

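RNA of 16 single newborn ovaries, 4 per genotype, had been measured on 1-colour Affymetrix arrays. The deposited table holds linear intensities, 1 per probe set and array, summarised with Affymetrix Expression Console 1.2 per the labels, by an algorithm not given in the sources used here. Each array's 2% trimmed mean is 500, and 11.2% to 15.6% of intensities per array lie under 16. The design had assumed this scale, and 16 was added before log2 was taken. Groups came from the source labels. Of 45101 probe sets, 64 controls were left out, 34945 had 1 gene in the platform annotation, 932 several and 9160 none. The probe set with the highest mean level stood for each gene, and 18031 of the 18193 genes matched RefSeq. Number of arrays limits the precision.

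A model of 4 group means was fitted with limma 3.58.1 in R 4.3.3 (statmod 1.5.0), with 12 residual and 3.32 prior degrees of freedom, a moderated test of the interaction and of 5 differences between groups, and Benjamini-Hochberg adjustment over all genes. The script was tested on simulated data. The genes described were those called, the 10 positive and 10 negative ones with the smallest p beyond them, the genes followed in the study and, of 34 lists (646 of 697 genes measured), the member with the smallest p if under 0.05. That gave 50 genes after 4 clones were left out. The members and lists were chosen with earlier results of these data known. Other settings tried were the offset, a floor, the linear scale, array scaling, choice of probe sets, filters on dim genes, the variance model, array weights, an oocyte covariate, the replicate number as a block and leaving out ovaries. Equal replicate numbers did not pair the ovaries: of 24 pairs of deviations from the group means, 1 correlated above 0.1 (median -0.03). The highest correlation between arrays was 0.980.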

Additional observations from a re-analysis of the deposited data

Results flagged for a closer look

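In both called genes the measured difference with Runx1 loss was unlike in ovaries with and without Foxl2, by 3.21 for Col8a1 and -3.01 for Slc8a3. The additive level of Col8a1, 2.84, lay below the scale minimum of 4, so 1.16 of its 3.21 was fixed by the scale. By the limit of 8.30 set in the design, both interactions are undetermined. In 4 of 200 group values examined, 1 ovary lay far from its 3 companions, while chance marks about 1 group in 20. Gfi1 was 6.17 in Runx1 KO replicate 4 against 5.39 to 5.51. Gimap9 was 7.69 in Foxl2 KO replicate 2 against 7.35 to 7.39. Sox9 was 6.82 in control replicate 1 against 7.18 to 7.22. Sox10 was 6.73 in Runx1 KO replicate 4 against 6.44 to 6.48.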

How the results depend on the processing

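The count of called genes was 2 (1 positive, 1 negative) as reported and under equal array medians, quantile normalization, every probe set with 1 gene, no shared probe sets, a trended robust prior, array weights, a minimum of 1.5-fold and, added after the data were seen, a filter at the median Y-linked level. It was 0 (0 positive, 0 negative) with no offset, with a floor of 16, under one-way analysis of variance and with the oocyte score as a covariate. It was also 0 without the 2 ovaries that stood apart (added later) and with the replicate number as a block. A count of 0 also came from 2 filters that removed both called genes. They kept genes above the median level (9096 genes) or with every group mean above the limit of 8.30 (8067 genes). At an unadjusted p under 0.05 the fits with a count of 0 had 384 to 1039 genes. It was 3 (2 positive) with an offset of 50, adding Akr1c18, 4 (3 positive, each with a linear additive level below 0) on linear intensities, adding Hsd3b1 too, and 3 (2 negative) with the mean of all probe sets, adding Rab17. Leaving out 1 ovary gave 0 to 4 called genes, 0 to 2 positive and 0 to 2 negative. Of 50 genes, 44 kept their direction in every setting, and 15 of 1677 values were reversed. On linear intensities these were Fst at 429.5, Pdgfc at 317 and Pla2r1 at -11.1. Pdgfc was 0.0172 with equal array medians, Nr5a1 -0.0448 with the mean of probe sets and Amh 0.00689 with a floor. Leaving out 1 ovary, Pdgfc ranged from -0.186 to 0.234, Amh from -0.268 to 0.111 and Foxl2 from -0.0237 to 0.292. The cause was not tested. The replicate block left Col8a1 at 3.21 (adjusted p = 0.111) and Slc8a3 at -3.01 (adjusted p = 0.203).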
